A study of Mus musculus with 6 samples.

Results

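The NF-kB pathway was followed through 10 genes in plasma cells, the antibody-secreting end stage of the B cell: the 5 Rel subunit genes (Nfkb1, Nfkb2, Rel, Rela and Relb), the inhibitor genes Nfkbia and Nfkbie, the feedback gene Tnfaip3, and Traf3 and Map3k14 of the alternative arm. They were taken by gene symbol, and all 10 members were found among the 24346 symbols of each library. The cells descended from congenically marked B cells of B1-8germ donors, whose knocked-in heavy chain recognises the hapten NP, transferred into wild-type C57BL/6J hosts. All hosts had been immunised with NP-CGG in alum, and at day 7 donor plasma cells were sorted from spleen as IgM or as IgG1 cells, with 3 libraries of each. Both groups thus share donor genotype, host, antigen and day and differ in the sorted isotype. Ages and the number of mice per library are not given in the labels, and the p-values cover only the spread among these 6 libraries, part of which may be technical. Where 3 values are listed for a group they are those of libraries 1, 2 and 3 in that order.

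NF-kB dimers are built from the 5 Rel proteins and are held in the cytoplasm by IkB proteins. In the canonical arm a kinase complex marks IkB for destruction and frees dimers of RelA or c-Rel with the processed product of Nfkb1. In the alternative arm the kinase NIK (Map3k14) accumulates when TRAF3 is removed by receptors such as those for BAFF, and it drives processing of the Nfkb2 precursor, which partners RelB. Several of the genes, Nfkbia, Nfkb2 and Tnfaip3 among them, are themselves NF-kB targets, which makes them feedback regulators. The pathway supports survival of B cells and, in part through the alternative arm, of plasma cells.

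Nfkb2, Relb, Traf3, Nfkb1 and Nfkbia were at lower levels in every IgG1 library than in any IgM library, as was Rel at a much lower level, while Rela, Nfkbie, Tnfaip3 and Map3k14 overlapped between the groups. In such bulk libraries fewer cells with a transcript and less of it per cell cannot be told apart. None of the tested differences passed the test over all genes. With limma on log2(FPKM + 1), where FPKM is fragments normalised to transcript length and sequencing depth, 0 of 9 tested members had a Benjamini-Hochberg adjusted p under 0.05, against 6.02% of the 9087 genes tested. At an unadjusted p under 0.05 there were 4, Nfkb2, Nfkbia, Traf3 and Relb, all lower in IgG1 cells (44.4% of those tested, against 10.2% of all genes). The 5 tested members with no overlap were 55.6% of those tested, and 13.5% of all genes tested were lower in IgG1 with no overlap. The members were chosen with earlier results of these data known, so these shares are a description. The tested members each reached 1 FPKM in at least 4 libraries, and Rel, which did so in 1, was not tested. The median log2 fold change (IgG1 minus IgM) of the tested members was -0.59, and that of all genes tested was -0.05.

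**Figure D1:**
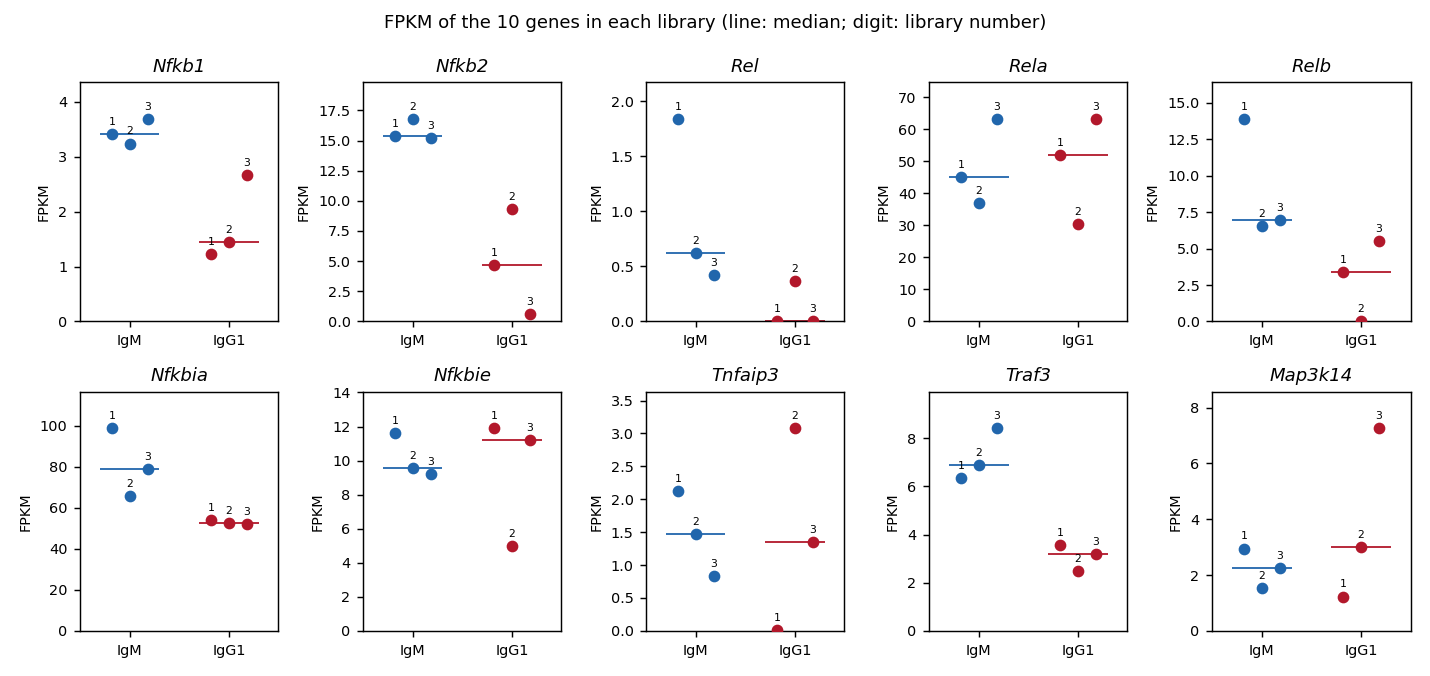
FPKM (vertical axes, each from 0) of the 10 genes in the 3 IgM and 3 IgG1 libraries, with the library number above each point and the group median as a line. For Nfkb1, Nfkb2, Relb, Nfkbia and Traf3 each IgG1 point lies under each IgM point, and the IgG1 points of Nfkb2 are spread from 0.652 to 9.31 while those of Nfkbia lie between 51.9 and 54.0.

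The stretches of 250 bases before RefSeq start sites of Nfkb2 (the first of 3), Nfkbia and Traf3 are shown because these 3 members, with adjusted p of 0.0693, 0.0698 and 0.126, were the nearest to the threshold (GRCm38.p6, the assembly that mm10 names). Capitals mark matches to the kB consensus, the 10-base sequence that NF-kB dimers bind, on either strand, and overlapping matches are joined.
Nfkb2, chr19:46304487-46304736, plus strand: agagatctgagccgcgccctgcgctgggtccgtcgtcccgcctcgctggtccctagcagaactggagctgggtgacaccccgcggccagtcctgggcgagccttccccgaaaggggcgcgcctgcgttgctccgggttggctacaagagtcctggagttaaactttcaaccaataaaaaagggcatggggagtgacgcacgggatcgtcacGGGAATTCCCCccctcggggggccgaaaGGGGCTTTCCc
Nfkbia, chr12:55492648-55492897, minus strand: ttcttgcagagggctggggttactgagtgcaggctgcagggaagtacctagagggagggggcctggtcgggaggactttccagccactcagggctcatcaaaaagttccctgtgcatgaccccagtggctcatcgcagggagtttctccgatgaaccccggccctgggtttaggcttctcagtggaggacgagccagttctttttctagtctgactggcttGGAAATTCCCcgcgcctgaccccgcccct
Traf3, chr12:111166120-111166369, plus strand: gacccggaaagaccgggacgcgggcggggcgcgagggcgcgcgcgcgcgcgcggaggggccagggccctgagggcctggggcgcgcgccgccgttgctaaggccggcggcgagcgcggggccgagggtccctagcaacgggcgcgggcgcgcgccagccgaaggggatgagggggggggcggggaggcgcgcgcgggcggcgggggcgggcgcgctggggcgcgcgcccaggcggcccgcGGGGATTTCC
In these stretches the match nearest the start began 11 bases before it in Nfkb2, 29 in Nfkbia and 10 in Traf3. The windows at the other Nfkb2 starts, not printed, also held matches, 1 of them beginning 10 bases after the second start. Read on the motif's strand, the match nearest the start in the printed stretches had the letters GGGGCTTTCC in Nfkb2, GGGAATTTCC in Nfkbia and GGGGATTTCC in Traf3. Searched on both strands, the kB consensus occurred in 9.55% of 27025 genes with a promoter window of 300 bases (250 before and 50 after the start) and in 6 of the 8 members with a window, Nfkb2, Nfkbia, Traf3, Tnfaip3, Rel and Nfkbie. The 2 members with a window and no match were Rela and Map3k14. A match describes letters in the window and was not tested for binding. Nfkb1 and Relb had no window.

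Rela was the most abundant subunit gene. It encodes RelA, the activating partner of most canonical dimers, and stood at 45.0, 37.1 and 63.2 FPKM across the IgM libraries and at 52.1, 30.3 and 63.3 across the IgG1 libraries. The IgM values lay within the IgG1 range, with library 2 lowest in both groups. The log2 fold change was -0.02 (SE 0.27, 95% interval -0.62 to 0.57, limma adjusted p = 0.969), and the width of the interval sets how small a difference 3 libraries per group could show.

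Nfkb2 encodes the precursor of the alternative arm and had the lowest log2 fold change of the tested members in the main comparison. Relb was lower with a pseudocount of 0.1 (Relb -2.8, Nfkb2 -2.3) and without IgG1 library 3 (Relb -2.2, Nfkb2 -1.14). With array weights Relb was at -1.7 and Nfkb2 at -1.69, and without IgM library 2 both were at -1.83. The levels of Nfkb2 were 15.4, 16.8 and 15.2 FPKM in the IgM libraries and 4.66, 9.31 and 0.652 across the IgG1 libraries. The IgM libraries were within 1.1-fold of each other, while the IgG1 libraries spanned 14.3-fold. The means were 15.8 ± 0.865 (SD, n = 3) and 4.87 ± 4.33, a 3.24-fold difference, and the log2 fold change was -1.87 (SE 0.55, 95% interval -3.07 to -0.67, limma adjusted p = 0.0693). Of the 9087 genes tested, 32 had a fold change this low or lower. From the smallest steps in the values, about 33 fragments stood behind the lowest IgG1 value and about 782 to 896 behind the IgM values. With IgG1 library 2 left out the log2 fold change was -2.46 (limma adjusted p = 0.0394), and without IgG1 library 3 it was -1.14 (0.0976). Exons of Nfkb2 overlap those of Psd, which was at 0.07 FPKM or less in all 6 libraries.

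Relb encodes the partner of processed Nfkb2 product. It was at 13.9, 6.53 and 6.97 FPKM in the IgM libraries and at 3.38, 0 and 5.52 across the IgG1 libraries. IgM library 1 stood above the other two, and the groups did not overlap. The log2 fold change of -1.66 (SE 0.63, limma adjusted p = 0.144) includes the library listed at 0, and without that library it was -0.85 (adjusted p = 0.28).

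Nfkb1, which encodes the precursor of the canonical DNA-binding subunit, was low in both groups. It stood at 3.41, 3.24 and 3.69 FPKM in IgM and at 1.23, 1.44 and 2.66 across the IgG1 libraries. The means were 3.45 ± 0.23 and 1.78 ± 0.77 (SD, n = 3), and the log2 fold change was -0.71 (SE 0.41, limma adjusted p = 0.34). The groups did not overlap, with IgG1 library 3 nearest to the IgM range.

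Rel, which encodes c-Rel, the subunit known for its role in activated B cells, was the least abundant. It was at 1.84, 0.625 and 0.42 FPKM across the IgM libraries, at 0.367 in IgG1 library 2, and listed at 0 in IgG1 libraries 1 and 3. About 222, 79 and 56 fragments stood behind the IgM values and about 42 behind that of IgG1 library 2. Each IgM value was above each IgG1 value, but 5 of the 6 libraries were under 1 FPKM and no test was made. Among the tested genes, the number listed at 0 was 27 to 60 per IgM library and 74, 243 and 288 across the IgG1 libraries, so a value of 0 was more frequent in the IgG1 libraries generally.

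FPKM is per length, so levels can be set side by side. In order of mean FPKM over the 6 libraries the 10 genes ran Nfkbia (66.9), Rela (48.5), Nfkb2 (10.3), Nfkbie (9.75), Relb (6.05), Traf3 (5.15), Map3k14 (3.04), Nfkb1 (2.61), Tnfaip3 (1.48) and Rel (0.542). The ranges over the 6 libraries of neighbours in this order overlapped in each case except between Rela and Nfkb2. By group the order differed below Rela. In IgG1 cells Nfkbie (9.38) had a higher mean than Nfkb2 (4.87), and Map3k14 (3.83) than Traf3 (3.07), while in IgM cells Nfkb1 (3.45) was above Map3k14 (2.25). Relb was above Nfkb1 in 5 of 6 libraries, and the order of Nfkb2 and Relb turned in IgG1 library 3. Rela made up 56.6%, 57.7% and 70.6% of the summed subunit FPKM across the IgM libraries and 84.9%, 73.2% and 87.8% across the IgG1 libraries. The Rela share was thus higher in each IgG1 library than in any IgM library, with IgM library 3 and IgG1 library 2 the nearest, and this share was not tested. The sum itself overlapped, at 64.3 to 89.5 FPKM in IgM and at 41.5 to 72.2 in IgG1. The Nfkb2 share was 17.0% to 26.1% in IgM and 7.59%, 22.5% and 0.903% across the IgG1 libraries. In IgG1 library 2 the Nfkb2 share lay within the IgM range while Relb was listed at 0.

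**Figure D2:**
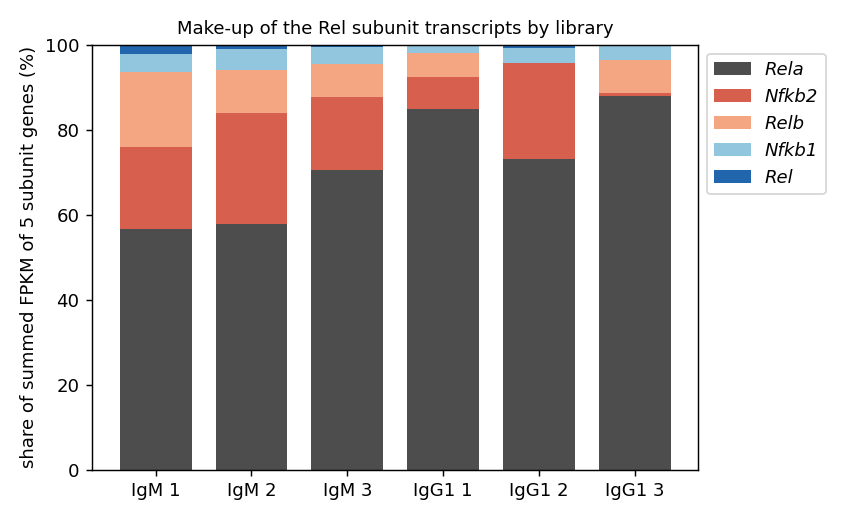
Share (vertical axis, percent) of each of the 5 Rel subunit genes in their summed FPKM, as stacked bars, 1 bar per library. Rela takes 56.6% to 70.6% in the IgM libraries and 73.2% to 87.8% in the IgG1 libraries.

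Among the inhibitors, Nfkbia encodes IkB-alpha, the rapidly resynthesised inhibitor of the canonical arm. Its levels were 98.7, 65.9 and 78.6 FPKM in the IgM libraries and 54.0, 52.5 and 51.9 across the IgG1 libraries. It was the highest of the 10 genes in each library except IgG1 library 3, where Rela was higher. The IgG1 libraries were within 1.04-fold of each other, and the groups did not overlap. The means were 81.1 ± 16.5 and 52.8 ± 1.11 (SD, n = 3), 1.54-fold apart, and the log2 fold change was -0.59 (SE 0.17, 95% interval -0.97 to -0.21, limma adjusted p = 0.0698). Without IgM library 1 it was -0.44 (adjusted p = 0.319).

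Nfkbie, which encodes IkB-epsilon, a slower inhibitor, was at 11.6, 9.58 and 9.20 FPKM in IgM and at 11.9, 5.01 and 11.2 across the IgG1 libraries. The groups overlapped, with IgG1 library 2 apart from the rest (log2 fold change -0.17, 95% interval -0.97 to 0.62, limma adjusted p = 0.824). The summed FPKM of the 2 inhibitors was at least 75.5 in each IgM library and at most 66.0 in each IgG1 library. Divided by the summed subunits this gave 1.39, 1.17 and 0.981 in IgM and then 1.08, 1.39 and 0.874 across the IgG1 libraries, ranges that overlapped.

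Tnfaip3 encodes A20, a ubiquitin-editing enzyme that ends canonical signalling. It was at 2.12, 1.47 and 0.831 FPKM in IgM and at 0.0141, 3.08 and 1.35 across the IgG1 libraries. The IgG1 libraries held both the lowest and the highest value of the 6, with about 1 fragment behind the lowest and about 209 behind the highest. The log2 fold change was -0.18 (SE 0.55, 95% interval -1.37 to 1.01, limma adjusted p = 0.885).

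In the alternative arm, Traf3 encodes the adaptor that keeps NIK low. It stood at 6.36, 6.91 and 8.42 FPKM in the IgM libraries and at 3.55, 2.49 and 3.18 across the IgG1 libraries. The groups were apart with a similar spread in each, at means of 7.23 ± 1.07 and 3.07 ± 0.535 (SD, n = 3), a 2.35-fold difference. The log2 fold change was -1.02 (SE 0.37, 95% interval -1.81 to -0.22, limma adjusted p = 0.126).

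Map3k14, which encodes NIK itself, was the tested member with a positive fold change. It was at 2.95, 1.55 and 2.26 FPKM in IgM and at 1.23, 2.99 and 7.26 across the IgG1 libraries. IgG1 library 3 was the highest and IgG1 library 1 the lowest of all 6 (log2 fold change 0.39, 95% interval -0.73 to 1.5, limma adjusted p = 0.719). Without IgG1 library 3 it was -0.1. The ratio of Traf3 to Map3k14 was 2.16, 4.47 and 3.72 in IgM and then 2.88, 0.834 and 0.438 across the IgG1 libraries, overlapping through IgG1 library 1.

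**Figure D3:**
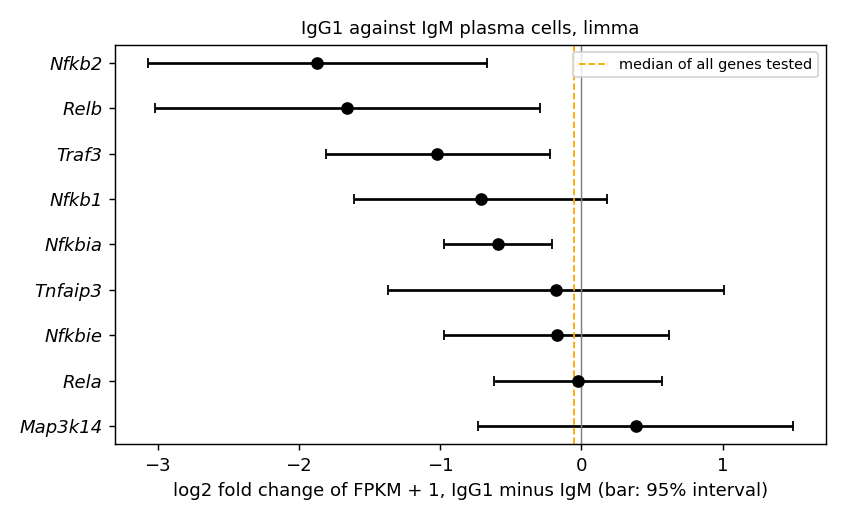
Log2 fold change of FPKM + 1 (horizontal axis, IgG1 minus IgM) of the 9 tested members with limma's 95% interval as bars, and the median of all genes tested as a dashed line at -0.05. The unadjusted intervals of Nfkb2, Relb, Traf3 and Nfkbia lie below 0, and no member passed the threshold after adjustment.

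Transcript length moved with the comparison over the whole table. Deviations from the gene means correlated with length at Spearman rho 0.15 to 0.30 in the IgM libraries and -0.15 to -0.24 in the IgG1 libraries, across genes, which are not independent. The median fold change was 0.16 for 3282 tested genes under 2000 nt, -0.12 for 3658 genes of 2000 to under 4000 nt and -0.31 for 1825 genes of 4000 nt or more. The share of genes lower in IgG1 with no overlap also rose with length, at 6.46%, 15.5% and 22.4% in these classes, around the 13.5% of all genes. Nfkbia (1578 nt) lay below the median of its short class and Traf3 (6972 nt) below that of the long class. Relb (2203 nt), Nfkbie (2395 nt), Nfkb2 (3136 nt) and Nfkb1 (3562 nt) lay below that of the middle class. Rela (2716 nt) lay above that of the middle class, and Map3k14 (4246 nt) and Tnfaip3 (4378 nt) above that of the long class. With the length and GC trend of each library taken out, the log2 fold change was -1.94 for Nfkb2, -1.85 for Relb, -0.71 for Nfkbia, -0.8 for Traf3 and -0.61 for Nfkb1. Limma's adjusted p were then 0.109, 0.143, 0.0628, 0.267 and 0.477.

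**Figure D4:**
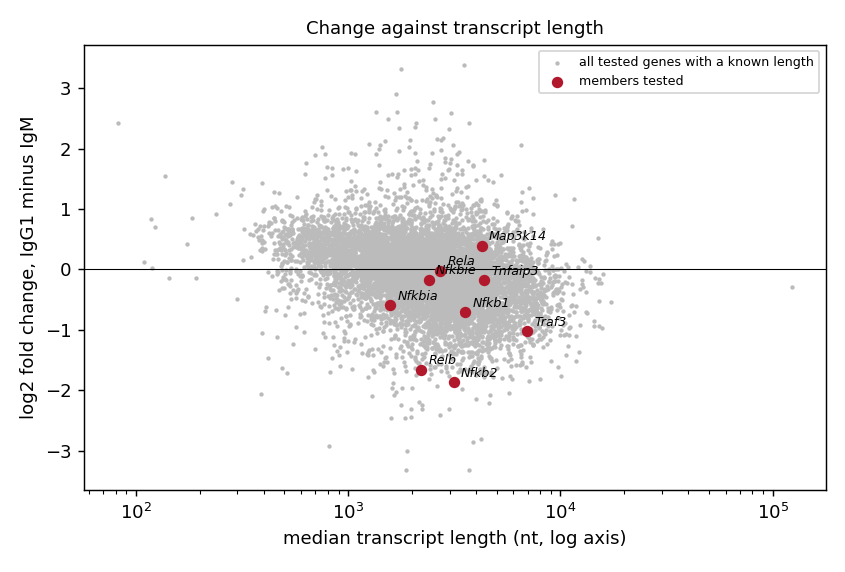
Log2 fold change (vertical axis, IgG1 minus IgM) against median transcript length in nt (log axis) for tested genes with a known length in grey and the 9 tested members in red. Longer transcripts lie lower on the whole, while Nfkbia at 1578 nt is the shortest member and is at -0.59.

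Of 81 listed pathway genes outside the 10 members, 61 were tested, of which 2 were higher and 3 lower in IgG1 cells with limma's adjusted p under 0.05, beside 4.26% and 1.76% of all genes. Their median log2 fold change was -0.09. Those lower were the receptor genes Tnfrsf17 (BCMA) and Tnfrsf13b (TACI), through which BAFF and APRIL act, and Plek, and those higher were Traf5 and the survival gene Bcl2l1.

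Of 7 tested receptor genes 0 were higher and 2 lower, and 6 had negative fold changes. Tnfrsf17 was at 568, 713 and 587 FPKM in IgM and at 67.4, 81.2 and 97.0 across the IgG1 libraries (-2.92, SE 0.15, limma adjusted p = 1.23e-06), and Tnfrsf13b at -0.68 (adjusted p = 0.04, and 0.198 without IgM library 1). The BAFF receptor gene Tnfrsf13c stood at 43.1 to 64.8 FPKM in IgM and at 36.5 to 43.7 in IgG1 libraries (-0.44, adjusted p = 0.212). Cd27, Tnfrsf9 and Tlr9 were listed at 0 in all 6 libraries.

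Of 10 TRAF and ubiquitin ligase genes 1 was higher and 0 lower. Traf5, an adaptor of TNF family receptors, was at 6.53, 7.40 and 5.56 FPKM in IgM and at 15.7, 13.0 and 18.2 across the IgG1 libraries, so that it and Traf3 stood apart between the groups in opposite directions. Its log2 fold change was 1.15 (SE 0.30, limma adjusted p = 0.0458), and it kept an adjusted p under 0.05 in 0 of the 6 fits that left out a library, where the highest was 0.171 without IgM library 1. After the length and GC correction it was 1.04 (adjusted p = 0.0838).

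Of 17 tested NF-kB target genes 1 was higher and 1 lower, with a median of 0. Bcl2l1, which encodes anti-apoptotic BCL-XL, was at 17.2 to 23.1 FPKM in IgM and at 33.3 to 56.7 in IgG1 libraries (1.12, SE 0.24, limma adjusted p = 0.0197, and 0.101 without IgM library 1). Plek, which encodes pleckstrin, a protein kinase C substrate, was at 20.7, 23.1 and 28.5 FPKM in IgM and at 9.73, 4.22 and 2.16 across the IgG1 libraries (-2.15, SE 0.41, adjusted p = 0.0133, and 0.0613 without IgM library 3). Tnf, Il6 and Ccl4 were listed at 0 in all 6 libraries.

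The other lists had no call with limma in either direction. Tested members numbered 3 of the other IkB proteins, 5 of the IKK complex and its relatives, 11 of the canonical adaptors and kinases and 8 of the deubiquitinases and A20 partners, with medians of 0.38, -0.2, -0.09 and -0.29. Nfkbib, which encodes IkB-beta, was at 65.6 to 80.1 FPKM in IgM and at 89.6 to 93.3 in IgG1 libraries, apart in the direction opposite to Nfkbia (0.38, SE 0.15, adjusted p = 0.15). Bcl3, an atypical IkB gene, was at 0.66 (adjusted p = 0.534). Ikbke, of the IKK list, passed the filter through the IgM libraries alone. The kinase genes Chuk (-0.2) and Tbk1 (-0.44) and the adaptor genes Irak1 (-0.09) and Myd88 (-0.05) had adjusted p of 0.752, 0.502, 0.796 and 0.9. Tax1bp1, an A20 partner, was at 81.0 to 112.0 FPKM in IgM and at 52.3 to 72.6 in IgG1 libraries (-0.59, adjusted p = 0.0748). Otulin, a linear deubiquitinase gene, was at 2.97, 4.98 and 27.1 in IgM and at 35.0, 24.6 and 59.0 across the IgG1 libraries (2.12, adjusted p = 0.0559).

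Among 6305 tested genes with a mean of at least 5 FPKM, those whose log2(FPKM + 1) followed Nfkbia most closely over the 6 libraries were Dcp1a (Pearson r 0.991), Trappc12 (0.982), Anapc4 (0.98), Ddx5 (0.976) and Gigyf2 (0.976). These points fall into 2 groups of 3 libraries and share each library's depth, so the values are a description. Ddx5, an RNA helicase gene, was at 66.4, 40.4 and 53.7 FPKM in IgM and at 36.7, 31.7 and 36.3 across the IgG1 libraries, with IgM library 1 highest as for Nfkbia.

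The libraries carried the genes of plasma cells, with the 8 plasma cell markers summing to 44300 to 50200 FPKM in IgM and 36800 to 39300 in IgG1 libraries, and 5 of the 8 lower in IgG1 cells with limma (beside 1.76% of all genes). These were Tnfrsf17, Jchain, Prdm1, Irf4 and Slamf7, the last 3 with adjusted p of 0.0222, 0.0153 and 0.0405. After the length and GC correction those of Prdm1 and Irf4 were 0.0763 and 0.124. Without 1 library the adjusted p went up to 0.118 for Prdm1, 0.0987 for Irf4 and 0.168 for Slamf7, each without IgM library 1. Jchain, the marker with the highest mean in both groups, was at 24800 to 28600 FPKM in IgM and at 14200 to 17000 in IgG1. Not every marker was lower in IgG1 cells. Xbp1 (5350 to 6020 FPKM in IgM, 6430 to 6860 in IgG1), Mzb1 and Sdc1 had log2 fold changes of 0.25, 0.19 and 0.1. Limma's adjusted p for them were 0.136, 0.356 and 0.695. Follicular B cell markers summed to 125 to 154 and 97.5 to 124 FPKM, with Pax5 at 0 in all 6 libraries. Myeloid markers summed to 64.2 to 69.2 FPKM in IgM and 34.5 to 45.7 in IgG1, mostly Cd68, with 3 of 8 tested and 0 called. S100a8, S100a9 and Itgax were at 0 in all 6 libraries, Csf1r was at 1.11 to 2.14 FPKM in IgM and at most 0.0162 in IgG1, so that it passed the filter through the IgM libraries alone, and Lyz2 was at 4.77 to 8.44 in IgM and at 5.07, 0.16 and 0.309 across the IgG1 libraries. The means of Csf1r and Lyz2 and the summed myeloid level were lower in IgG1 cells, as were Nfkb2 and Relb, though Lyz2 overlapped. Among the IgG1 libraries Lyz2 was highest in library 1, Nfkb2 in library 2 and Relb in library 3. The part of these myeloid levels in the results was not tested. T cell markers summed to at most 7.94, NK cell markers to at most 9.2 and erythroid and platelet markers to at most 2.77 FPKM in any library.

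In GRCm38 the tested members with no overlap lie on chromosome 19 from 46304320 to 46312385 (Nfkb2), chromosome 7 from 19606217 to 19629438 (Relb), chromosome 12 from 111166370 to 111267153 (Traf3), chromosome 3 from 135584655 to 135691547 (Nfkb1) and chromosome 12 from 55489410 to 55492647 (Nfkbia), each annotated as protein-coding.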

How the data were processed

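Per the labels' protocols, total RNA was extracted with a column kit, full-length cDNA was made with a SMART-Seq HT kit and libraries with Nextera XT. Reads were processed against mm10 with Bowtie2 2.3.5.1, TopHat2 2.1.1, Cuffdiff and Cufflinks 2.2.1, as the submitters' processing notes list them. Which annotation, strand setting and scaling were used is not given in the sources used here. Values in the deposited files are FPKM, per the file headers, and were used as deposited.

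The 9087 genes that reached 1 FPKM in 3 or more libraries were compared with limma 3.58.1 in R 4.3.3 (eBayes with an intensity trend) on log2(FPKM + 1), a scale that understates changes of low genes, with Benjamini-Hochberg adjustment over all genes and a threshold of 0.05. Depth was estimated from the smallest FPKM step times GENCODE vM21 transcript length, at 15500000 to 17800000 fragments per library, and fragments per gene are approximate. Trends on median transcript length and GC content were removed by loess.

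Members and gene lists were chosen with earlier results of these data known. Every member is named, as are the list genes past the threshold or, in a pathway list with none, the 2 with the highest mean, and the 5 genes most like Nfkbia. Tnfrsf13c, Nfkb2's overlap partner Psd and genes at 0 were named after their values were seen, as were Ikbke and the marker genes Cd68, Csf1r, Lyz2, Pax5, S100a8, S100a9 and Itgax. So were the plasma cell markers Xbp1, Mzb1 and Sdc1. Promoter windows are from RefSeq (GRCm38.p6), which held 8 of the 10 members. Alternatives were other pseudocounts, filters, scalings and moderation, array weights, a replicate block, the length and GC correction and leaving out each library.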

Additional observations from a re-analysis of the deposited data

How the results depend on the processing

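The fold changes of Nfkb2, Relb, Traf3, Nfkbia and Nfkb1 stayed negative in all their alternatives (18, or 17 for Nfkb1, which a filter at 5 FPKM removed). Their ranges were -2.46 to -1.14, -2.8 to -0.85, -1.21 to -0.6, -0.82 to -0.44 and -0.99 to -0.32. Between 0 and 2 members passed the threshold. Nfkb2 alone did so with a pseudocount of 5 (1 member, -1.17, adjusted p = 0.0387) and with array weights (1 member, 0.0478), and Nfkb2 and Nfkbia did after rescaling without Jchain (2 members, 0.0458 and 0.0284), under which the all-gene median went from -0.05 to -0.25. Relative to that median they were at -1.81 and -0.57, against -1.82 and -0.54 before. Leaving out 1 library gave 0 to 1 members. With the replicate number as a block 1 member, Nfkb2, passed (adjusted p = 0.0405). Deviations of same-numbered libraries from their group means, over all tested genes, correlated at r of 0.10, -0.03 and 0.00. With 3 libraries a group these values cannot tell whether same-numbered libraries share mice or a sort. Over all genes the block called 432 higher and 154 lower, against 387 and 160.

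The sign turned in Rela, Nfkbie, Tnfaip3 and Map3k14, whose lowest adjusted p over the alternatives was 0.539, 0.548, 0.517 and 0.315. Rela was at 0.05 after median centring, 0.18 without IgM replicate 3 and 0.28 without IgG1 replicate 2. Nfkbie was at 0.18 without IgG1 replicate 2 and Map3k14 at -0.1 without IgG1 replicate 3. Without 1 library the 4 lay between -0.24 and 0.28 (Rela), -0.37 and 0.18 (Nfkbie), -0.65 and 0.36 (Tnfaip3) and -0.1 and 0.84 (Map3k14). Tnfaip3 was at 0.17 after quantile normalization, 0.07 after the length and GC correction, 0.01 without IgM replicate 1 and 0.36 without IgG1 replicate 1.

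The count of all genes called higher and lower was 2 and 4 with no filter, 3 and 5 with no intensity trend, 177 and 394 after rescaling without Jchain, 188 and 200 after quantile normalization and 120 and 81 after the length and GC correction. Higher calls were 70.7% of the total, 80.6% after median centring, 48.5% after quantile normalization, 31.0% after rescaling and 59.7% after the correction. Leaving out 1 library gave 78 to 394 higher and 30 to 251 lower, with the lowest of both without IgM replicate 1. The causes were not tested. With 3 libraries a group, members of a few FPKM had wide intervals, and a difference that missed the threshold is not shown to be absent.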
